A study of Mus musculus with 18 samples.

Results

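Libraries positive for the Cd11c reporter were set against libraries negative for it, across all genes of the deposited count table. The members were all 18 libraries of the series, chosen by the sorted subset in their labels. Of these, 9 were reporter-positive and 9 reporter-negative. The mice were C57BL/6, lacked Apoe (Apoe-/-), carried a green reporter of Cx3cr1 (Cx3cr1GFP) and a yellow reporter of Cd11c (Cd11cYFP), and had reached 7 months of age after 5 months on Western diet, so all groups share these alleles and the diet. Live CD45-positive cells of digested aortas and carotid arteries from males and females were sorted by both colours. The reporter-positive arm held DP cells, positive for YFP and GFP (n = 4), and YFP cells, positive for YFP alone (n = 5). The reporter-negative arm held GFP cells, positive for GFP alone (n = 6), and DN cells, positive for neither (n = 3). The comparison was also made on each side of the GFP split, DP over GFP among GFP-positive cells and YFP over DN among GFP-negative cells. Whether each replicate is its own mouse or a pool is not stated in the labels, and p-values then cover only the scatter of these samples, part of which may be technical.

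Cd11c is the alpha subunit of a beta-2 integrin, encoded by Itgax, that binds complement fragments and adhesion molecules. Dendritic cells carry it at high levels, and macrophages of the lung and of lipid-rich lesions carry it as well. The YFP reporter therefore marks a mixture of cell types in the artery wall, and a bulk library of sorted cells cannot tell fewer cells of a type apart from less RNA per cell.

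The sequence just before the start of Itgax is shown because the reporter that defines the comparison takes its name and its control from this gene. Itgax lies on mm10 chromosome 7, plus strand, from 128129547 to 128150657. The 250 bases before its RefSeq start (GRCm38.p6, chr7:128129300-128129549, plus strand) are printed 5′ to 3′, with the letters of an AP-1 motif, TGAGTCA, in capitals.
Itgax promoter: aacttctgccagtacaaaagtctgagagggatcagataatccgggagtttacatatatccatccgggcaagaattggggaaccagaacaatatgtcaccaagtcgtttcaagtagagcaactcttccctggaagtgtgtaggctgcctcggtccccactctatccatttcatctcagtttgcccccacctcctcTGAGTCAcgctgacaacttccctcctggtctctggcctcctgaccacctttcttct
The AP-1 motif was searched as TGAGTCA on both strands and matched once, beginning 56 bases before the start (position -56), and 4.46% of 32851 promoter windows of the same kind held it. A PU.1 core, GAGGAA, searched likewise, had 0 matches in the window, and 23.3% of promoters held it. A match describes letters and shows no binding.

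Total counts per library lay between 289166 (YFP replicate 6) and 27742113 (YFP replicate 1), and 17143 of 23337 genes passed the filter on low counts. Levels are given as CPM, read counts relative to library sizes that TMM scaled. On the first principal component of log2 CPM, with 36.8% of the variance, DP replicate 5 lay at 211 and YFP replicate 5 at 205, while the other 16 libraries lay between -57.0 and 24.5. The scaling factors of these 2 libraries were 0.533 and 0.445, the lowest of the 18.

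Itgax itself did not pass the test between the arms. It stood at 456, 311, 38.6 and 47.8 CPM in DP replicates 1, 2, 4 and 5, against 107 to 191 CPM in the 6 GFP libraries. It stood at 175, 380, 499, 1120 and 89.6 CPM in YFP replicates 1, 3, 4, 5 and 6, against 11.4, 332 and 297 CPM in DN replicates 1, 3 and 6. The groups overlapped on both sides of the GFP split, since DP replicates 4 and 5 lay below every GFP library and DN replicates 3 and 6 lay above YFP replicates 1 and 6. The fitted log2 fold change of Itgax was 0.74 ± 0.56 (SE), with an edgeR adjusted p of 0.955. It was 2.48 without DP replicates 4 and 5 and DN replicates 3 and 6, 2.0 within the libraries numbered 1 and 2, and -0.48 within those numbered 3 to 6. The 4 libraries left out were picked by their own Itgax and Cx3cr1 levels. A rise of Itgax without them was thus set by that choice.

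Cx3cr1, the fractalkine receptor that drives the GFP reporter, gave the same picture of these libraries. It stood at 92.7, 118, 9.43 and 0.427 CPM in DP replicates 1, 2, 4 and 5, against 80.9 to 165 CPM in GFP libraries. It stood at 0.930, 60.7, 60.0, 26.3 and 104 CPM in YFP replicates 1, 3, 4, 5 and 6, against 4.09, 142 and 134 CPM in DN replicates 1, 3 and 6. The libraries labelled DP replicates 4 and 5 were thus low in both reporter-driving genes and those labelled DN replicates 3 and 6 were high in both, against their labels. The shallow library labelled YFP replicate 6 was high in Cx3cr1, and its Itgax level of 89.6 CPM lay below every GFP library. It thus went against its label too, but is not counted among the 4 libraries named so below. Every direction below rests in part on these libraries, and values without the first 4 are given for the genes and lists below that the results turn on. Without them the GFP-negative side compares YFP libraries with the lone DN replicate 1, which is assumed to vary like the other groups.

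**Figure D1:**
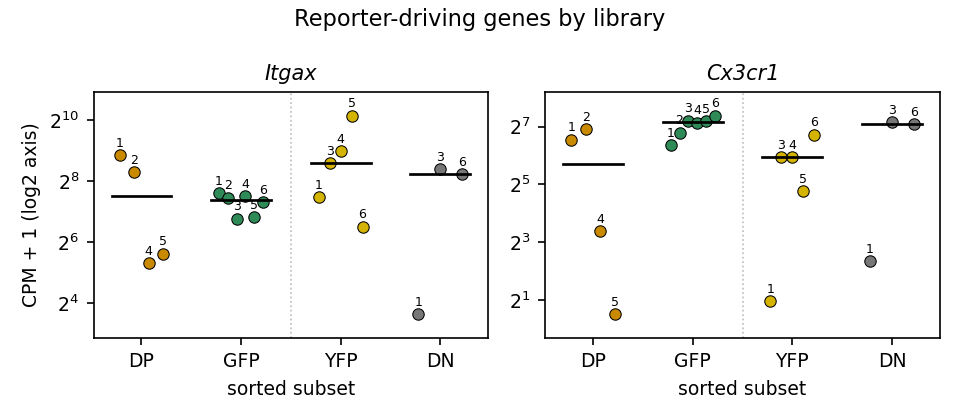
Itgax and Cx3cr1 by library in the 4 sorted subsets, as CPM + 1 on a log2 axis, with numbers for the replicate, bars for the subset median and a dotted line between the GFP-positive and GFP-negative sides. Itgax in DP libraries falls into a pair at 311 and 456 CPM and a pair at 38.6 and 47.8 CPM, on either side of the GFP libraries.

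The other subunits of the beta-2 integrins were close between the arms. Itgb2, the shared beta chain, averaged 1033 ± 435 CPM in reporter-positive and 1098 ± 352 CPM in reporter-negative libraries (SD, n = 9 each). Itgam, the alpha subunit of Mac-1, had a log2 fold change of -0.27 ± 0.40 (SE), Itgal, the alpha subunit of LFA-1, of -0.69 ± 0.60, and Itgad of 1.01 ± 1.0. The edgeR adjusted p lay between 0.955 and 0.982 over the 5 genes of this list. The directions of Itgam and Itgb2 turned without the 4 libraries, to 0.79 and 0.38. Apoe, which the mice lack, had a log2 fold change of -0.17 ± 0.74, and its sign changed between the settings given in the closing section.

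Across all genes the Cd11c reporter gave no call. With edgeR's quasi-likelihood test and GFP status as covariate, 0 of 17143 genes passed an adjusted p of 0.05 (0%), and the smallest adjusted p was 0.138. At an unadjusted p under 0.05 there were 1227 genes higher (7.16%) and 34 genes lower (0.198%) in reporter-positive libraries. DESeq2 called 221 genes (217 higher), limma voom 0, and limma voom with sample weights 925 (861 higher). Without DN replicate 1 edgeR called a single gene, Il4, the cytokine of type 2 immunity, which was named after its value was seen. Detected genes numbered 19245 to 21972 in libraries with number 1 or 2, and 13150 to 18961 in libraries with numbers 3 to 6. Within these sets edgeR called 192 genes (67 higher) and 6 genes (all higher). The set of numbers 1 and 2 has a single YFP and a single DN library. The spread between libraries of a subset was wide, with a common dispersion of 0.888. The median log2 fold change of all genes was 0.15, and 0.30 with DESeq2's size factors used for scaling.

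The GFP-positive side gave the calls that there were. Between DP and GFP libraries 34 genes rose and 0 fell (0.198% of genes tested, edgeR adjusted p under 0.05), against 1172 genes (6.84%) at an unadjusted p. Between YFP and DN libraries 0 genes passed (0%), with 461 (2.69%) at an unadjusted p and 11 called by DESeq2. The difference between the 2 sides, tested as an interaction, passed in 0 genes (0%), with 565 at an unadjusted p and 10 called by DESeq2, so no gene was shown to differ between the sides by edgeR. Of the 34 genes, 32 had the same sign between YFP and DN, and 2 of these (Ramp2 and Mgp) also had an unadjusted p under 0.05 there. Il4 and Fam101b, named after their values were seen, had the opposite sign. With the replicate number as a block the count between DP and GFP was 0, as it was without the 4 libraries, without any 1 of the GFP libraries, and without DP replicate 4 or DP replicate 5. It was 21 without YFP replicate 6 and 16 without DN replicate 6. Within the libraries numbered 1 and 2 it was 244 (81 higher), and within those numbered 3 to 6 it was 188 (168 higher). It lay between 106 and 252 without DP replicate 1 or 2, YFP replicate 1, 3, 4 or 5, or DN replicate 3.

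Of the 34 genes that rose between DP and GFP libraries, 2 were on the fibroblast list (Mfap5 and Dcn), and the lists of smooth muscle (Myl9), chemokine receptors (Ccr3), cDC2 cells (Cd24a), classical monocytes (Ly6c1), and mast cells, eosinophils and basophils (Ear6) held 1 each. Mfap5, a microfibril protein of fibroblasts, stood at 15.8, 10.4, 78.4 and 140 CPM in DP replicates 1, 2, 4 and 5, against 2.21 to 6.61 CPM in GFP libraries, a log2 fold change of 3.91 ± 0.72 (SE, edgeR adjusted p = 0.0361). Every DP library lay above every GFP library. Myl9, a myosin light chain of smooth muscle, stood at 7.82, 55.2, 539 and 1548 CPM in DP libraries in the same order, against 17.7 to 53.7 CPM in GFP libraries, a log2 fold change of 3.95 ± 0.83 (edgeR adjusted p = 0.0457). DP replicate 1 lay below the GFP libraries and DP replicates 4 and 5 lay far above. Ccr3, the eotaxin receptor of eosinophils, stood at 1.5, 2.20, 268 and 309 CPM in DP libraries, against 2.05 to 5.97 CPM in GFP libraries, a log2 fold change of 5.06 ± 1.01 (edgeR adjusted p = 0.0404). Its rise was carried by DP replicates 4 and 5, both among the libraries that went against their labels. Myl9, Cd24a and Ear6 were likewise highest in these 2, Cd24a with 95 and 106 counts in DP replicates 1 and 2 and 5095 and 10302 in DP replicates 4 and 5, and Ear6 with 0, 0, 37 and 1073 counts. Cd24a, a surface glycoprotein of several leukocytes, rose by 4.30 on the log2 scale, Ly6c1 by 3.75 and Ear6, an eosinophil ribonuclease with near-identical relatives, by 8.27. Their log2 fold changes between YFP and DN libraries were 1.25, 0.87 and 0.91. In the main effect without the 4 libraries, Ccr3 stood at -0.95, Cd24a at -0.48, Ear6 at -1.61 and Myl9 at 0.044, while Mfap5 stood at 1.54 and Ly6c1 at 1.55. With the replicate number as a block none of these passed the test between DP and GFP.

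Few genes held on both sides of the GFP split. Over all genes, 10011 (58.4%) had the same sign on both sides, and the log2 fold changes of both sides had a Spearman correlation of 0.188 across genes, which are not independent replicates. With an unadjusted p under 0.05 on each side and the same sign, 49 genes were higher (0.286%) and 2 were lower (0.0117%), and 0 of them passed the adjusted threshold on each side. The highest DP library of the 49 genes was DP replicate 5 in 35 and DP replicate 4 in 14. The highest YFP library was YFP replicate 5 in 43 and YFP replicate 1 in 6. Over all 6017 genes higher on both sides, DP replicates 5 and 4 were highest in 44.6% and 21.6%, and YFP replicates 5 and 1 in 40.6% and 26.6%.

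The 51 genes depended on single libraries. Without DP replicate 5 and YFP replicate 5 together there were 31 such genes, of which 9 were among the 51, namely Cytl1, Fam198b, Itga2b, Mfge8, Mmrn2, Plvap, Ppap2b, Ramp2 and Wfs1. Without the 4 libraries against their labels there were 26, and Gzma was the single gene shared. With the replicate number as a block there were 9, of which 6 were shared. The count was 33 without DP replicate 5, 20 without YFP replicate 5, 33 without DN replicate 1 and 22 without DN replicate 3. It was 111 without GFP replicate 5, 81 without GFP replicate 6, 83 without DP replicate 1 and between 181 and 192 without YFP replicate 1, 3 or 4.

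**Figure D2:**
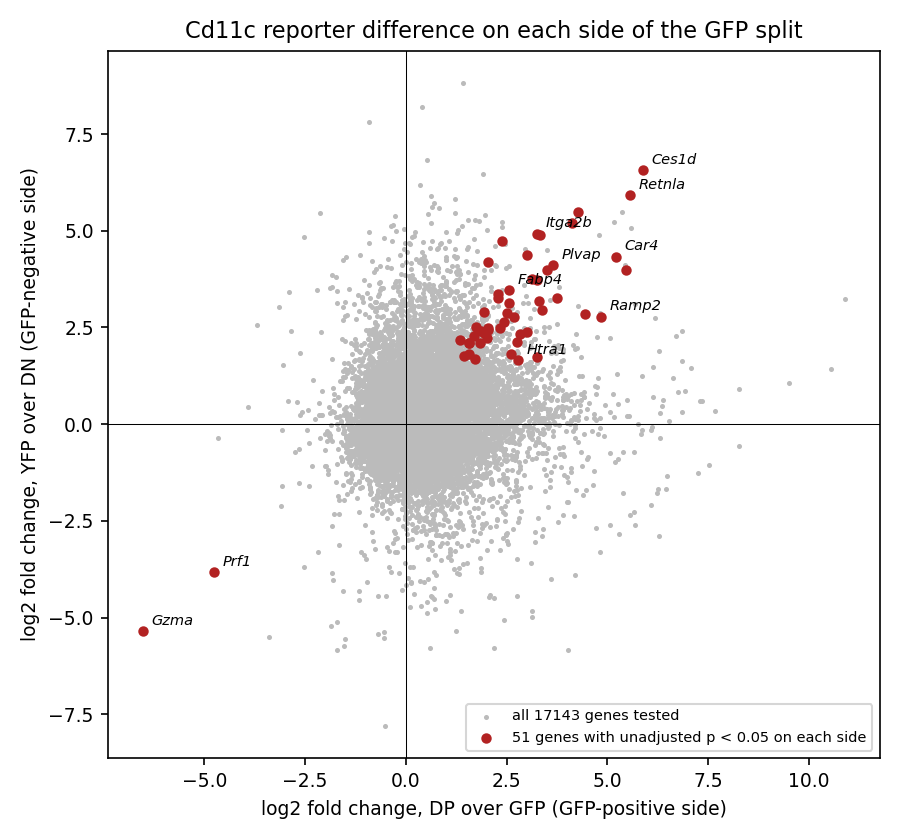
Log2 fold change of DP over GFP libraries (x axis) against that of YFP over DN libraries (y axis) for 17143 genes, with the 51 genes of unadjusted p under 0.05 and the same sign on each side in red. The red points lie at the upper right, 49 of them, and at the lower left, where Gzma and Prf1 stand.

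Ramp2 and Plvap had the smallest p-values on the higher side, where no gene passed the adjusted threshold. Of the 12 genes taken there by p, Plvap was the single one on any of the gene lists described below, that of endothelium. The lists hold 499 entries in a table of 23337 genes. Absence from them therefore does not show that the other genes lie outside vessel wall cells, and their source was not tested. Plvap, which forms the diaphragms of endothelial fenestrae, lies on mm10 chromosome 8, 71497765 to 71511752. It stood at 2.25, 7.65, 63.7 and 24.2 CPM in DP replicates 1, 2, 4 and 5, against 1.33, 2.32, 1.41, 1.86, 4.08 and 0.602 CPM in GFP replicates 1 to 6. It stood at 70.6, 18.9, 20.3, 172 and 0 CPM in YFP replicates 1, 3, 4, 5 and 6, against 4.99, 2.13 and 2.71 CPM in DN replicates 1, 3 and 6. Apart from DP replicate 1 and the shallow YFP replicate 6, every reporter-positive library lay above all reporter-negative ones. The log2 fold change was 3.86 ± 0.73 (SE, edgeR adjusted p = 0.138), with 3.66 on the GFP-positive and 4.12 on the GFP-negative side, and Plvap stood at 2.20 without the 4 libraries.

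Ramp2, the partner that turns the calcitonin receptor-like receptor into an adrenomedullin receptor, lies on chromosome 11, 101246028 to 101259546. It stood at 3.24, 2.68, 31.1 and 110 CPM in DP libraries, against 0.702 to 1.98 CPM in GFP libraries. It stood at 16.5, 3.71, 5.98, 44.4 and 2.99 CPM in YFP libraries, against 1.73, 1.91 and 3.01 CPM in DN libraries. All DP libraries lay above all GFP libraries, and YFP replicate 6, with 1 count, overlapped the DN libraries. The log2 fold change was 3.93 ± 0.74 (SE, edgeR adjusted p = 0.138), and the side of DP over GFP passed the test at an adjusted p of 0.0361. Ramp2 stood at 1.96 without the 4 libraries.

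The other genes with the smallest p on the higher side covered further functions. Mgp, a matrix protein that restrains calcification of arteries, averaged 448 ± 408 CPM in reporter-positive and 75.2 ± 40.7 CPM in reporter-negative libraries (SD, n = 9 each). Htra1, a secreted serine protease, averaged 115 ± 95.2 CPM in reporter-positive and 23.4 ± 14.2 CPM in reporter-negative libraries. S100a16 is a calcium-binding protein, Ppap2b (also called Plpp3) a lipid phosphatase, Ntf3 a neurotrophin, Gng11 a G protein gamma subunit, Ppic a cyclophilin, Mgll the lipase of monoacylglycerols and Mustn1 a small nuclear protein known from muscle. Their log2 fold changes lay between 2.26 (Ppap2b) and 3.74 (Mgll), with edgeR adjusted p between 0.143 and 0.180. Each was highest in DP replicate 5 or DP replicate 4 among DP libraries. Ppic was called between DP and GFP libraries, with a log2 fold change of 3.71. These 9 genes had smaller log2 fold changes without the 4 libraries, of 1.05 for Mgp, 1.27 for Htra1, 1.10 for Ntf3, 1.04 for Mgll and 1.01 to 1.87 for the others.

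In 4 genes (0.0233% of genes tested) the libraries did not overlap on either side of the GFP split, with Wnt11 and Fstl1 higher and Cyp39a1 and Ints10 lower with the reporter. Apart from Wnt11 these were named after their values were seen. With so few libraries and so many genes, some genes can separate in this way through the order of the libraries alone. The number to be found by chance was not tested, so the 4 genes do not show an excess. The same limit holds for the single gene, Ints10, that separated all 9 from all 9 libraries. Wnt11, a secreted Wnt ligand, stood at 46.9, 39.9, 239 and 857 CPM in DP libraries, against 39.5, 37.5, 9.89, 21.5, 7.07 and 10.4 CPM in GFP libraries. It stood at 24.7, 40.8, 22.7, 101 and 32.8 CPM in YFP libraries, against 13.4, 19.4 and 14.9 CPM in DN libraries. DP replicate 2 lay just above GFP replicate 1. Its log2 fold change was 2.79 ± 0.60 (SE, edgeR adjusted p = 0.143), and 1.31 without the 4 libraries. Fstl1, a secreted glycoprotein of mesenchymal cells, stood at 24.2 to 186 CPM in DP against 2.86 to 16.1 CPM in GFP libraries, and at 47.9 to 147 CPM in YFP against 35.0 to 44.2 CPM in DN libraries, a log2 fold change of 2.03 ± 0.50 (edgeR adjusted p = 0.237). Ints10, a subunit of the Integrator complex, was the single gene whose 9 reporter-positive libraries (0.107 to 21.0 CPM) did not overlap the 9 reporter-negative ones (21.0 to 36.2 CPM), 0.00583% of genes tested, and YFP replicate 3 and GFP replicate 1 lay next to each other at that border.

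**Figure D3:**
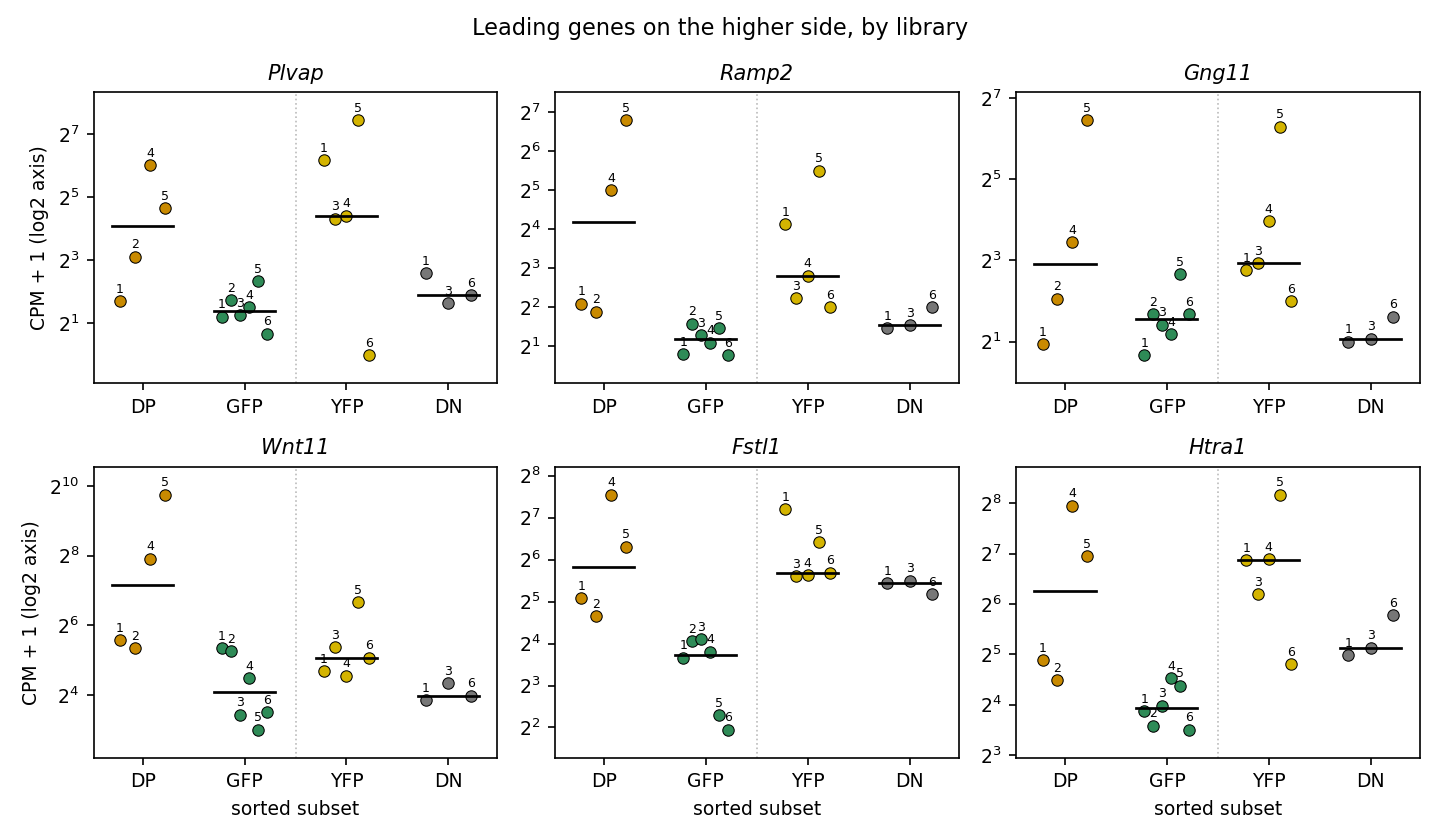
CPM + 1 on a log2 axis of 6 leading genes by library in the 4 sorted subsets, with replicate numbers, bars for the subset median and a dotted line between the sides of the GFP split. Wnt11 and Fstl1 do not overlap within either side, DP replicates 4 and 5 are the highest DP libraries of every panel, and YFP replicate 5 or 1 is the highest YFP library.

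Of the genes picked because they held on both sides, Ces1d, Fabp4, Ear2 and Ak8 had their highest levels in DP replicate 5 and YFP replicate 5. Ces1d, a carboxylesterase that hydrolyses triglycerides, stood at 0.166, 0.407, 8.60 and 87.0 CPM in DP libraries, against 0 to 1.02 CPM in GFP libraries. It stood at 0.979, 0.523, 2.39, 163 and 0 CPM in YFP libraries, against 0.324, 0.733 and 0 CPM in DN libraries. It was thus near the level of the reporter-negative libraries in 5 of 9 reporter-positive ones. Fabp4, the fatty acid carrier of adipocytes, macrophages and capillary endothelium, stood at 3.41, 20.3, 73.7 and 206 CPM in DP against 5.65 to 38.7 CPM in GFP libraries, and at 21.8, 35.5, 44.5, 203 and 14.9 CPM in YFP against 0.647, 5.72 and 11.2 CPM in DN libraries. All YFP libraries lay above all DN libraries, and DP replicates 1 and 2 lay within or below the GFP range. Ear2, an eosinophil ribonuclease with near-identical relatives, and Ak8, an adenylate kinase, had log2 fold changes of 3.98 and 3.60 and their highest levels in the same 2 libraries. Itga2b, the platelet integrin alpha subunit, had 4 counts in DP replicate 5 and was highest in DP replicate 4 (42.7 CPM) and YFP replicate 5 (103 CPM), with 0 to 3.0 CPM in all reporter-negative libraries. Ces1d and Ear2 turned direction in the libraries numbered 1 and 2 alone, to -0.015 and -0.58. Ces1d stood at 1.28, Fabp4 at 1.39, Ear2 at -0.80, Ak8 at 0.84 and Itga2b at 1.42 without the 4 libraries.

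On the lower side no gene passed the adjusted threshold, and the 2 genes that held on both sides were Gzma and Prf1, both on the list of NK cells and ILC2. Gzma, the granzyme of killer lymphocytes, lies on chromosome 13, 113093825 to 113100981. It had 1, 2, 1 and 0 counts in DP replicates 1, 2, 4 and 5, against 573, 203, 1, 0, 18 and 0 counts in GFP replicates 1 to 6. It had 6, 10, 0, 1 and 0 counts in YFP libraries, against 994, 1 and 0 counts in DN replicates 1, 3 and 6. The excess without the reporter lay in GFP replicates 1 and 2 and DN replicate 1, and GFP replicate 5 had 0.979 CPM against at most 0.475 CPM in any reporter-positive library. Its log2 fold change was -5.94 ± 1.49 (SE, edgeR adjusted p = 0.237). Prf1, the pore-forming perforin, followed with -4.35 ± 1.35 and the same 3 libraries highest. The direction of Gzma turned with sample weights in limma voom, to 0.067.

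Cd177, a surface protein of neutrophils, and Arid5a, which stabilises messages of inflammatory cytokines, led the lower side among better-expressed genes. Cd177 averaged 7.01 ± 9.52 CPM in reporter-positive and 32.0 ± 19.4 CPM in reporter-negative libraries (SD, n = 9 each), a log2 fold change of -2.46 ± 0.84 (edgeR adjusted p = 0.481). Arid5a stood at 317, 266, 120 and 41.2 CPM in DP libraries, against 295 to 434 CPM in GFP libraries, and at 132 to 233 CPM in YFP libraries, against 282, 336 and 331 CPM in DN libraries. On the GFP-negative side its libraries did not overlap, and on the GFP-positive side DP replicate 1 lay within the GFP range. Its log2 fold change was -0.87 ± 0.34 (edgeR adjusted p = 0.543). Ctsw, a protease of killer lymphocytes, and Ms4a4b, of lymphocytes too, had log2 fold changes of -3.29 and -2.50, with DN replicate 1 at 228 and 168 CPM as the highest library. Gpr183, a receptor for oxysterols that guides leukocytes, Mefv, the pyrin gene, Rassf5, a Rap1 effector in adhesion, and Klf6, a transcription factor of myeloid cells, had log2 fold changes of -0.70, -1.11, -0.91 and -0.78. Ctsw and Ms4a4b had the opposite sign in the libraries numbered 3 to 6 alone, at 0.67 and 1.16. Among the 8 genes per direction picked by the larger of the 2 p-values, Rnf114, Ccl5, Flad1, Sipa1 and Slco2b1 had log2 fold changes between -1.52 (Ccl5) and -0.67 (Rnf114).

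**Figure D4:**
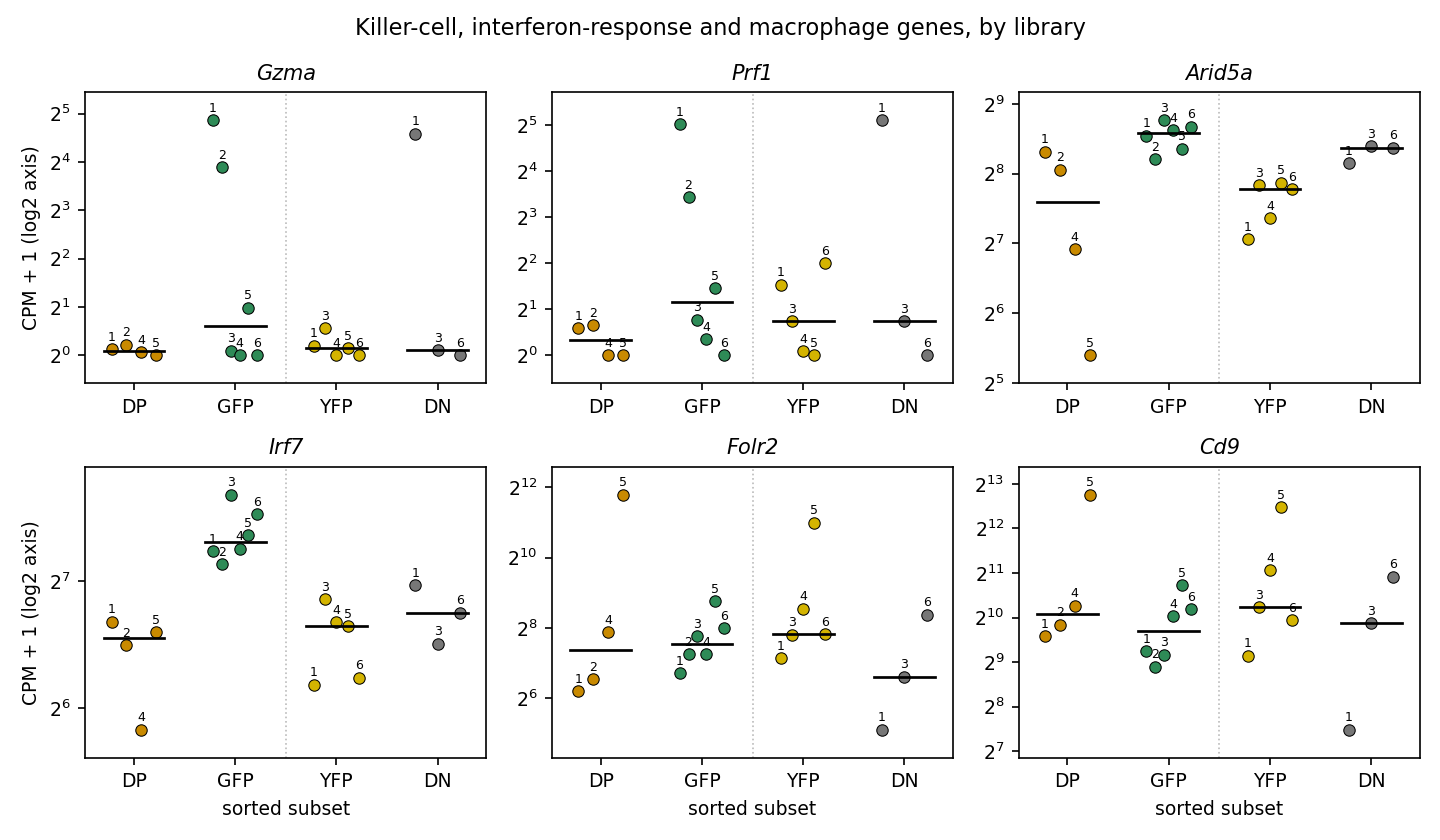
CPM + 1 on a log2 axis of 6 genes by library, with replicate numbers and bars for the subset median. Gzma and Prf1 stand out in GFP replicates 1 and 2 and DN replicate 1, and Folr2 and Cd9 in DP replicate 5 and YFP replicate 5.

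Gene lists are described by their counts and medians beside the median of all genes (0.15) and the share of all genes that were higher (58.6%, with 59.4% between DP and GFP and 52.4% between YFP and DN), with no test, and 0 members of any list passed the main effect. Of the 5 dendritic cell lists, those of cDC1, cDC2 and mature cells had medians above that of all genes, and the other 2 lay close to it. Of 13 genes of cDC1 cells, which cross-present antigen, 10 were higher, with a median log2 fold change of 0.49. Of 12 genes of cDC2 cells 8 were higher (median 0.70), and of 11 genes of mature dendritic cells 8 were higher (median 0.58). The mature list was higher in 8 of 11 between DP and GFP (median 1.11) and in 5 of 11 between YFP and DN (median -0.085). Of 13 lineage factors 7 were higher (median 0.19), and of 9 genes of plasmacytoid dendritic cells 6 (median 0.089). Xcr1, the chemokine receptor of cDC1 cells, stood at 5.82, 5.69, 0.789 and 57.9 CPM in DP libraries, against 2.94 to 11.7 CPM in GFP libraries, and at 40.1, 48.7, 11.3, 0.299 and 2.99 CPM in YFP libraries, against 2.75, 9.60 and 3.01 CPM in DN libraries. Itgae, the integrin CD103, stood at 63.5, 66.7, 3.21, 57.2 and 5.97 CPM in YFP libraries, against 24.4, 2.64 and 2.05 CPM in DN libraries. Levels of both overlapped between the arms. Gcet2 (Gcsam) and Cd209a, a lectin of cDC2 cells, had log2 fold changes of 4.80 and 2.19, and Ccl17 and Apol7c of 2.26 and 2.25. Few libraries carried these values. Gcet2 had 1523, 657 and 536 counts in YFP replicates 1 and 3 and DP replicate 5, and at most 39 elsewhere. Apol7c had 194 and 106 counts in YFP replicates 1 and 3, and at most 8 elsewhere. In GFP replicate 1 Ccl17 had 74 and Cd209a 1679 counts, and Ccl17 had 0 in YFP replicates 5 and 6. Without the 4 libraries against their labels the medians were 1.0 for cDC1 cells (12 of 13 higher), 0.69 for cDC2 cells (9 of 12) and 1.2 for mature dendritic cells (9 of 12), beside 0.11 for all genes. Those libraries were picked in part by Itgax, itself a gene of dendritic cells, so these medians are not independent of that choice. The lone DN library left, DN replicate 1, had the lowest summed cDC1 level of the reporter-negative libraries (488 CPM). It had the lowest cDC2 level of all libraries (343 CPM) and the highest reporter-negative level of the mature list (1303 CPM).

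The foamy and core macrophage lists had medians of opposite sign on the 2 sides of the GFP split, and the resident list did not. Of 17 genes of foamy or TREM2-high macrophages, the lipid-laden cells of plaques, 14 were higher overall (median 0.65). Between YFP and DN all 17 were higher (median 1.06), whereas between DP and GFP 5 were higher and 12 lower (median -0.20). The summed foamy level was 23060, 44650, 96170, 192400 and 44850 CPM in YFP replicates 1, 3, 4, 5 and 6. It was 2504, 30060 and 86390 CPM in DN replicates 1, 3 and 6, so the YFP and DN libraries overlapped. Cd9, a tetraspanin of these cells, stood at 765, 916, 1232 and 6913 CPM in DP libraries, against 477 to 1695 CPM in GFP libraries, and at 565, 1208, 2137, 5696 and 982 CPM in YFP libraries, against 178, 937 and 1929 CPM in DN libraries. Of 17 genes of resident macrophages 12 were higher (median 0.50), with 12 between DP and GFP (median 0.23) and 15 between YFP and DN (median 0.69). Folr2, the folate receptor that marks them, had a log2 fold change of 2.08 ± 0.68 (edgeR adjusted p = 0.462). The median of the resident list was -0.38 without DP replicate 5 and YFP replicate 5, and -0.19 without the 4 libraries. Of 11 core macrophage genes 7 were higher (median 0.22), with 3 between DP and GFP (median -0.17) and 9 between YFP and DN (median 0.72). Among them were Tyrobp and Fcer1g, signalling adaptors, at 1.45 and 1.18 and Csf1r, the receptor of macrophage growth factors, at -0.74. Without the 4 libraries all 17 foamy and all 11 core genes were higher, with medians of 1.05 and 0.77, and Csf1r stood at 0.77. The 4 libraries were picked by Itgax, which macrophages of lipid-rich lesions carry, and by Cx3cr1. Directions of macrophage genes in this fit are thus not independent of that choice. The lone DN library of that fit, DN replicate 1, had the lowest summed level of all libraries in each of these lists. The summed level of the core list ran from 9628 to 123800 CPM in reporter-positive and from 2232 to 52970 CPM in reporter-negative libraries, with DN replicate 1 lowest of all.

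Antigen presentation and monocyte lists had medians on both sides of that of all genes. Of 12 MHC class II genes 8 were higher (median 0.11), with 4 between DP and GFP (median -0.17) and 7 between YFP and DN (median 0.76). Of these genes 0 were higher on both sides of the GFP split. H2-Eb1, a class II chain, averaged 3021 ± 2644 CPM in reporter-positive and 2091 ± 816 CPM in reporter-negative libraries (SD, n = 9 each). Of 13 genes of classical monocytes 9 were higher (median 0.44), and of 13 of nonclassical monocytes 6 were higher (median -0.30). Mgst1, a glutathione transferase, held on both sides with 2.84 and 2.34, and its highest levels, 953 and 370 CPM, were those of DP replicate 5 and YFP replicate 5. Ifitm6, Pglyrp1 and Hes1 had log2 fold changes of 2.65, 2.62 and 1.4. Mgst1, Ifitm6, Pglyrp1 and Hes1 turned without the 4 libraries, to -0.42, -0.92, -2.33 and -0.87.

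Among secreted signals, of 22 chemokine ligand genes 14 were higher (median 0.52), and Ccl6, Ccl24 and Ccl8, ligands that attract monocytes or eosinophils, had log2 fold changes of 3.24, 3.45 and 2.54. Ccl6 stood at 147, 307, 2926 and 34656 CPM in DP libraries, against 231 to 1402 CPM in GFP libraries, so that DP replicates 1 and 2 lay within or below the GFP range. Ccl6 stood at -0.22, Ccl24 at -1.81 and Ccl8 at -0.46 without the 4 libraries. Of 14 inflammatory cytokine genes 7 were higher (median -0.038). Il6 held on both sides by unadjusted p, at 17.0, 9.27, 26.3 and 395 CPM in DP against 4.01 to 31.5 CPM in GFP libraries, and at 301, 51.8, 57.4, 198 and 14.9 CPM in YFP against 19.2, 43.0 and 9.76 CPM in DN libraries. Only DP replicate 5 lay above the GFP range, and YFP replicate 6 lay within the DN range. The log2 fold change of Il6 was 2.73 ± 0.67 (edgeR adjusted p = 0.237), and 0.91 without the 4 libraries. Osm and Il18 had -0.70 and 1.10. Of 14 chemokine receptor genes 7 were higher (median 0.066), with Cxcr2, of neutrophils, at 1.42. Of 17 genes of matrix proteases and their inhibitors 14 were higher (median 0.92), with Timp1, Timp3 and Mmp3 at 1.38, 1.69 and 1.45, and their median was 0.99 without the 4 libraries.

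Of 25 genes of the type I interferon response 21 were lower with the reporter (median -0.48). Between DP and GFP 22 were lower, and between YFP and DN 17. Irf7, the factor that amplifies interferon production, stood at 102, 89.4, 56.0 and 96.0 CPM in DP libraries, against 140 to 204 CPM in GFP libraries, and at 71.9 to 115 CPM in YFP libraries, against 124, 90.0 and 107 CPM in DN libraries. The DP and GFP libraries did not overlap, and the YFP and DN libraries did. Its log2 fold change was -0.63 ± 0.30 (edgeR adjusted p = 0.672). Oas3, which makes the activator of RNase L, and Irf9 had -1.24 and -0.80. With DESeq2's size factors used for scaling, 17 of 25 were lower (median -0.37), and without the 4 libraries 16 (median -0.19).

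Lists of vessel wall cells, granulocytes, platelets and NK cells had medians farther from that of all genes than the lists above, and their part in the results above was not tested. All 12 endothelial genes were higher with the reporter (median 2.24), and their summed level ran from 45.1 to 582 CPM in reporter-positive against 24.6 to 72.7 CPM in reporter-negative libraries. It was highest in YFP replicates 5 and 1 (582 and 441 CPM) and DP replicate 4 (326 CPM). Tie1 and Esam, endothelial surface proteins, had log2 fold changes of 2.9 and 3.0. All 12 fibroblast genes were higher (median 1.97), with summed levels of 961 to 12840 against 275 to 4620 CPM. Their median was 3.09 between DP and GFP and 0.47 between YFP and DN, whereas that of endothelium was 1.34 and 2.68. Lum and Dpt, matrix proteins of fibroblasts, had 2.02 and 2.43. All 12 smooth muscle genes were higher (median 1.70), with summed levels of 138 to 4764 against 102 to 419 CPM, and Acta2 and Tpm2, contractile genes, had 2.13 and 2.53. The smooth muscle median was 2.14 between DP and GFP and 0.62 between YFP and DN. The median was 1.4 for endothelium (11 of 12 higher), 1.5 for fibroblasts (12 of 12) and 0.14 for smooth muscle (8 of 12) without the 4 libraries.

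All 13 tested genes of mast cells, eosinophils and basophils were higher (median 4.18), with a median of 5.17 between DP and GFP and 0.91 between YFP and DN. Their summed level was 13950 CPM in DP replicate 5, and from 15.0 to 457 CPM in the other reporter-positive libraries, against 3.60 to 198 CPM in reporter-negative ones. Prg2, the major basic protein of eosinophils, stood at 0.166, 0.814, 33.8 and 3374 CPM in DP replicates 1, 2, 4 and 5, against 0.0532 to 1.35 CPM in GFP libraries. Its log2 fold change was 7.79, and 0.99 without the 4 libraries. Siglec5 (Siglecf), a lectin of eosinophils, stood at 94.0 and 46.5 CPM in DP replicates 4 and 5. Of 13 neutrophil genes 11 were higher (median 2.85), with summed levels of 39480 and 3179 CPM in DP replicates 5 and 4, 117 to 1179 CPM in the other reporter-positive libraries, and 184 to 2200 CPM in reporter-negative ones. Retnlg, of mature neutrophils, reached 21407 CPM in DP replicate 5, whereas Mpo and Elane, of immature neutrophils, were highest in DP replicate 4 with 425 and 156 CPM. Without the 4 libraries the medians were 0.18 for the eosinophil list and -2.25 for neutrophils, with 11 of 13 neutrophil genes lower. The lone DN library of that fit, DN replicate 1, held the highest neutrophil sum of the reporter-negative libraries (2200 CPM). DN replicates 3 and 6, left out of it, had 262 and 184 CPM.

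All 9 tested genes of platelets and red cells were higher (median 2.29), with summed levels of 4102 CPM in DP replicate 5 and 1453 CPM in YFP replicate 5, 29.0 to 236 CPM in the other reporter-positive libraries and 35.2 to 544 CPM in reporter-negative ones. That list and the resident macrophage list share Pf4, at 4079 CPM in DP replicate 5. Gp1bb and Treml1, of platelets, had log2 fold changes of 3.42 and 2.73. Of 13 genes of NK cells and ILC2 12 were lower (median -2.54), with Klrb1c, the receptor NK1.1, at -3.04, and all 13 were lower without the 4 libraries (median -3.20). Their summed level was 90.5 to 258 CPM in reporter-positive libraries, against 948 CPM in DN replicate 1, 434 and 241 CPM in GFP replicates 1 and 2 and 68.3 to 133 CPM in the other 6 reporter-negative libraries. The arms thus overlapped, and the excess without the reporter lay in those 3 libraries.

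**Figure D5:**
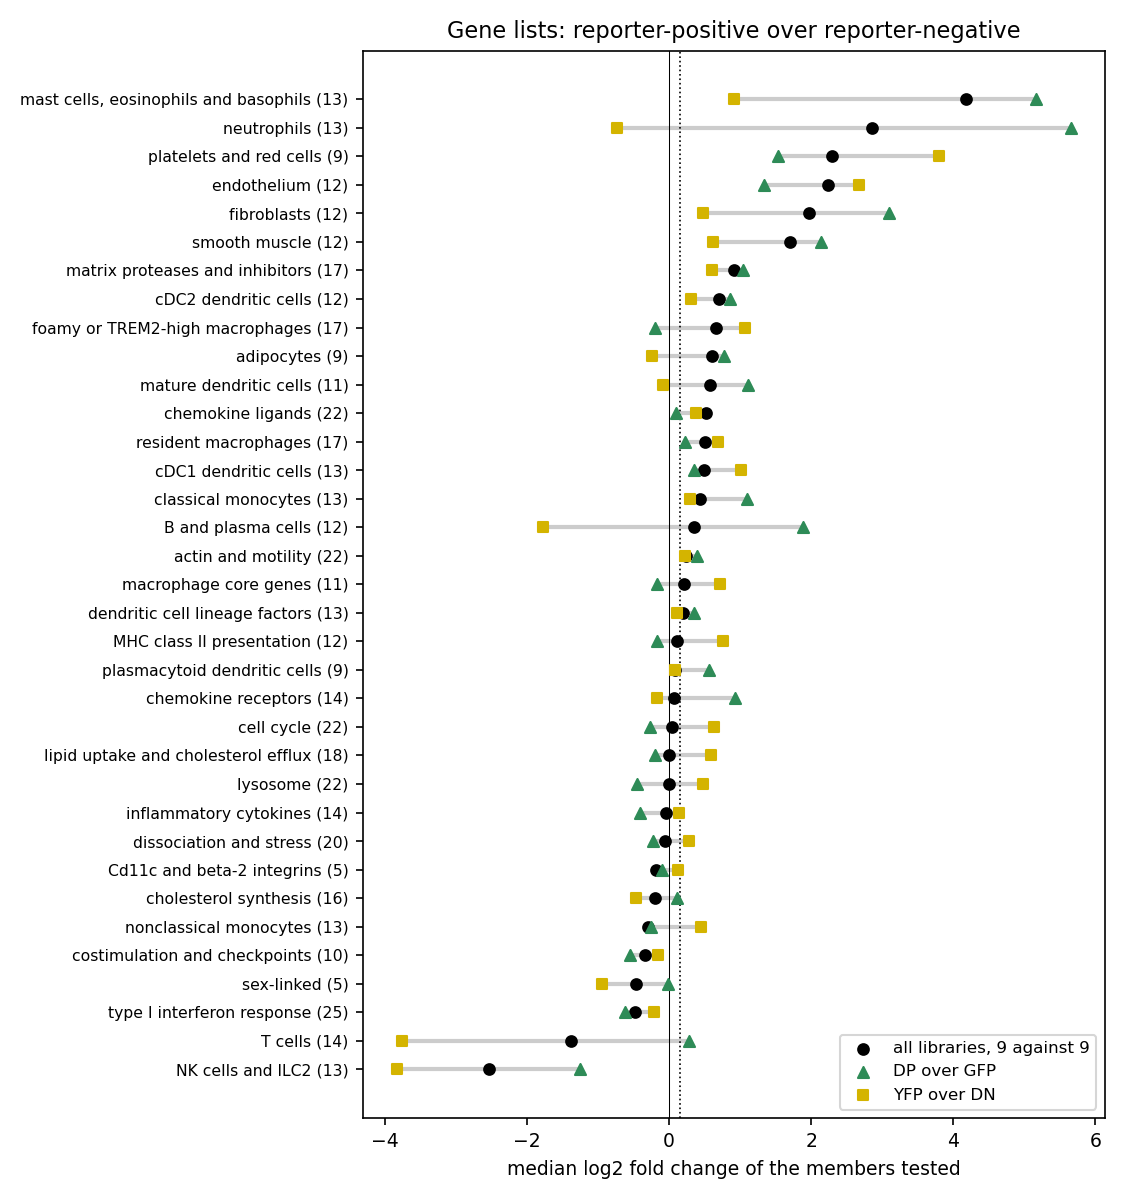
Median log2 fold change of each gene list (number of tested members in brackets) for all libraries, for DP over GFP and for YFP over DN, with a dotted line at the median of all genes, 0.15. Lists of eosinophils, neutrophils, platelets and vessel wall cells lie highest and those of NK and T cells lowest, and the neutrophil and T cell lists lie on opposite sides of 0 in the 2 side comparisons.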

How the data were processed

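RNA of 18 libraries of sorted cells was measured. Per the labels' protocols, cDNA came from a SMART-seq v4 kit with 11 amplification cycles and was tagged with Nextera XT. TopHat 1.4.1, SAMtools, HTSeq 0.7.1 and the build mm10 are named in the submitters' processing notes. The authors deposited whole-number gene counts, not normalized. The annotation and strand setting of the counting are not given in the sources used here. Overlapping, antisense and near-identical genes are therefore uncertain. Reads carry no molecular identifiers.

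Tests used edgeR 4.0.16 under R 4.3.3 on these counts (filterByExpr, TMM, robust quasi-likelihood test, Benjamini-Hochberg over 17143 genes), with Cd11c reporter status and GFP status as covariate. A fit of 1 mean per subset gave both sides and their interaction. Limma 3.58.1 and DESeq2 1.42.0 gave alternatives. Libraries of each subset differed beyond sampling noise, with a smallest chi-square of 16.7 per degree of freedom.

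The comparison, members and gene lists were chosen with earlier results of these data known. Of 36 lists (499 of 514 entries in the table, older symbols matched through RefSeq synonyms after a first fit), 22 have members named here, a choice made after values were seen. The rule took, per direction, 12 genes by p and 8 by the larger p of both sides, from genes averaging 20 CPM or more in the higher arm and 1 sign on both sides, then up to 3 members per list. Predicted genes, pseudogenes and receptor segments were skipped. The rule took Itgax, Cx3cr1, Apoe and the other beta-2 integrins as well. Coordinates are from GENCODE vM21 (mm10), which held 94 of the 98 named genes. The list of mitochondrially encoded genes had no entry in the table.

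Printed values come from fits without the replicate number. A fit with it as a block was an alternative, whose count is given where it changes the calls. The numbers were taken to pair DP and GFP libraries, since correlations of same-numbered libraries' deviations from subset means, 0.226, 0.313, 0.164 and 0.416, were all above 0.1. Differently numbered DP and GFP libraries had correlations from -0.392 to 0.334, the highest for DP replicate 4 and GFP replicate 3. These correlations therefore do not settle whether the numbers pair libraries. The labels do not say what the numbers mark.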

Additional observations from a re-analysis of the deposited data

Results flagged for a closer look

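Single libraries stood apart from the others of their subset, by the gap to the nearest library over the range of the subset, in 29 of 294 gene and subset pairs tested (9.86%). The cutoff is set for about 1 in 20 by chance in independent values. The genes here were picked from these same data and share libraries, so the share does not show an excess. DN, with 3 libraries, was not tested. The values are CPM and their cause was not tested. DP replicate 5 was high in Tmem128 (54.7 CPM), Ear2 (108 CPM) and Cd63 (2771 CPM). DP replicate 5 was low in Rassf5 (24.3 CPM), Rnf114 (32.4 CPM), Flad1 (0.213 CPM), Itgae (0.853 CPM), Irf9 (14.2 CPM) and Ints10 (0.107 CPM). DP replicate 4 was high in Mpo (425 CPM) and Elane (156 CPM). YFP replicate 5 was high in Mgll (95.7 CPM), Ces1d (163 CPM), Apoe (208 CPM) and Cd24a (220 CPM). YFP replicate 5 was low in Oas3 (0.299 CPM), Rassf5 (3.89 CPM), Sipa1 (9.87 CPM), Itgal (1.2 CPM), Irf9 (6.68 CPM) and Ints10 (1.99 CPM). YFP replicate 1 was high in Tie1 (51.6 CPM). YFP replicate 6 was high in Ear6 (2.99 CPM). GFP replicate 2 was high in Itgad (2.53 CPM) and Treml1 (1.43 CPM). GFP replicate 4 was low in Pydc3 (14.4 CPM). GFP replicate 5 was low in Oas3 (5.22 CPM) and Siglec5 (0.218 CPM). GFP replicate 6 was low in Dpt (0.151 CPM).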

How the results depend on the processing

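The count of genes called in the main effect was 0 in edgeR under both other scalings, both other filters, the replicate block, the number set as a covariate, the mean of both sides, no GFP covariate and the fit that is not robust, and in limma voom. It was 221 with DESeq2, 925 with sample weights in limma voom, 192 within numbers 1 and 2 and 6 within numbers 3 to 6, and 0 to 1 with any 1 library left out. Between DP and GFP, where 34 genes were called, the count was 92 with DESeq2's size factors in edgeR, 10 with upper quartile scaling, 62 with no filter, 351 with DESeq2, 0 with limma voom, 3445 with sample weights, 0 with the replicate block, 0 with the number set as a covariate, 244 and 188 within the sets of numbers, and 0 without the 4 libraries against their labels, without those 4 and the shallow library, without DP replicate 5 and YFP replicate 5, and with each side fitted alone, and 0 to 252 with any 1 library left out. Between YFP and DN it was 0, but 11 with DESeq2, 1807 within numbers 1 and 2 and 1 without the 4 and the shallow library, and 0 with any 1 library left out. The interaction gave 0, but 10 with DESeq2, 1 with sample weights and 680 within numbers 1 and 2. The 51 genes that held on both sides became 95 with DESeq2's size factors, 33 with upper quartile scaling, 103 with DESeq2, 9 with limma voom, 82 with sample weights, 9 with the replicate block, 525 and 131 within the sets of numbers, 26 without the 4 libraries, 30 without these and the shallow one, 31 without DP replicate 5 and YFP replicate 5, and 20 to 192 with any 1 library left out.

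The log2 fold changes of named genes kept their sign in most settings, with 110 of 1653 values turned over 17 settings and 23 of 1759 with a library left out, in 42 and 5 genes. Over the 3 leading members of every list, named or not, 30 of 102 turned without the 4 libraries, 35 of 101 within numbers 1 and 2 and 30 of 102 with sample weights. The 4 libraries were picked by Itgax and Cx3cr1, so the turn of Cx3cr1 without them was set by that choice. Turns of other genes of macrophages and dendritic cells, such as Csf1r, are not independent of it either. The cause of the other turns was not tested. Without the 4 libraries the turned values were Ear2 -0.80, Slco2b1 0.38, Cx3cr1 0.83, Apoe 0.37, Itgam 0.79, Itgb2 0.38, Cd24a -0.48, Pf4 -1.09, Cbr2 -1.76, Mgst1 -0.42, Ifitm6 -0.92, Pglyrp1 -2.33, Hes1 -0.87, Osm 0.0015, Ccl6 -0.22, Ccl24 -1.81, Ccl8 -0.46, Elane -0.14, Retnlg -1.75, Ear6 -1.61, H2-Oa -0.11, Csf1r 0.77 and Ccr3 -0.95. Without these and the shallow library they were Ear2 -1.06, Slco2b1 0.22, Cx3cr1 0.60, Apoe 0.14, Itgam 0.71, Itgb2 0.32, Cd24a -0.59, Folr2 -0.27, Pf4 -1.39, Cbr2 -2.03, Mgst1 -0.71, Ifitm6 -1.10, Pglyrp1 -2.60, Hes1 -1.05, Ccl6 -0.52, Ccl24 -2.12, Ccl8 -0.75, Elane -0.22, Retnlg -2.24, Myl9 -0.038, Csf1r 0.59 and Ccr3 -1.13. Within numbers 1 and 2 they were Mgll -0.11, Mustn1 -0.063, Ear2 -0.58, Ces1d -0.015, Slco2b1 0.30, Apoe 0.28, Itgam 0.29, Itgb2 0.27, Cd24a -0.32, Pf4 -0.91, Cbr2 -1.68, Mgst1 -0.067, Ifitm6 -2.01, Pglyrp1 -3.50, Hes1 -0.78, Ccl24 -1.62, Ccl8 -0.025, Retnlg -2.02, Siglec5 -0.14, Myl9 -0.30, Acta2 -0.051, H2-Oa -0.11, Csf1r 0.50, Ccr3 -0.87 and Cxcr2 -0.49. Within numbers 3 to 6 they were Ms4a4b 1.16, Ctsw 0.67, Itgax -0.48, Itgal 0.85 and H2-Eb1 -0.095. With sample weights they were Cd63 -0.015, Folr2 -0.44, Pf4 -1.30, Cbr2 -1.85, Mgst1 -0.45, Ifitm6 -1.06, Pglyrp1 -1.33, Hes1 -0.48, Il18 -0.56, Ccl6 -0.48, Ccl24 -0.78, Ccl8 -0.95, Retnlg -0.10, Gzma 0.067, H2-DMa -0.0056, Tyrobp -0.056 and Fcer1g -0.21. Without DP replicate 5 and YFP replicate 5, a setting chosen after seeing the data, they were Folr2 -0.023, Pf4 -0.56, Cbr2 -0.38, Ifitm6 -0.91, Il18 -0.45, Ccl8 -0.40, H2-DMa -0.17, Tyrobp -0.18 and Fcer1g -0.35. With the replicate block they were Itgam 0.049, Ifitm6 -0.37 and Elane -0.13. Limma voom turned Cbr2 -0.079. Apoe stood at 0.0803 with DESeq2's size factors, 0.078 with DESeq2, 0.074 as the mean of both sides, 0.28 with no GFP covariate and 0.092 with the number set as a covariate. With a library left out, Apoe ranged between -0.60 and 0.58, Elane ranged between -0.036 and 5.28, Itgal ranged between -1.20 and 0.19, Itgam ranged between -0.46 and 0.37 and Itgb2 between -0.37 and 0.10.

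The replicate block changed no other count of calls. Deviations of same-numbered YFP and DN libraries from their subset means had correlations of 0.487, 0.449 and -0.0932. Those of differently numbered YFP and DN libraries ran from -0.579 to 0.388. Depth limits genes of few counts, most of all in YFP replicate 6, where 1 count is worth 2.99 CPM.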

Other observations

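Lists not yet described gave further values, as medians of log2 fold change with the reporter. Of 14 T cell genes 13 were lower (median -1.39), at 0.28 between DP and GFP and -3.76 between YFP and DN, with a summed level of 218 to 353 CPM in YFP libraries, against 2178 CPM in DN replicate 1 and 335 and 197 CPM in DN replicates 3 and 6. Of 12 B and plasma cell genes 10 were higher (median 0.35), at 1.88 between DP and GFP and -1.77 between YFP and DN, with summed levels of 2651 CPM in YFP replicate 1 and 103 to 363 CPM in the other reporter-positive libraries, against 2259 CPM in DN replicate 1 and 92.0 to 184 CPM in the other reporter-negative ones. Of 22 lysosome genes 4 were higher between DP and GFP (median -0.45) and 21 between YFP and DN (median 0.48). Of 18 genes of lipid uptake and cholesterol efflux 5 were higher between DP and GFP and 12 between YFP and DN. Of 22 cell cycle genes 12 were higher (median 0.036), and of 20 genes of dissociation and stress 8 (median -0.054). Of 16 cholesterol synthesis genes 6 were higher (median -0.19), and of 10 costimulation genes 3 (median -0.33). Of 9 adipocyte genes 7 were higher (median 0.61), with a summed level of 198 CPM in DP replicate 5 and 9.57 to 58.6 CPM in the other reporter-positive libraries, against 13.3 to 73.7 CPM in reporter-negative ones. Of 22 genes of actin and motility 15 were higher (median 0.24), and of 5 sex-linked genes 0 (median -0.47).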
